A study of Mus musculus with 4 samples.

Results

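Immediate early transcription factors are the first genes that a cell switches on when growth factors or stress reach it, because their transcription needs no new protein. The set described here is Fos, Fosb, Jun, Junb, Jund, Egr1, Egr2, Klf2, Klf4 and Ier2, chosen by symbol among the mouse Ensembl genes of the count table. All 10 were found, of 55487 Ensembl genes in the table, and all 10 passed the filter on low counts. The line studied, LPC-HRas, is a mouse line labelled as liver cancer cells, grown with fetal bovine serum, and every sample was unstimulated. Of the 2 groups, the UBXN9-overexpressing one held libraries UBXN9 1 and UBXN9 2, and the control group held control 1 and control 2. UBXN9 is a UBX-domain protein encoded by Aspscr1. Each group rests on 2 libraries, and the labels do not say whether they were separate cultures or how UBXN9 was delivered, so each p reflects the spread among these libraries, which may be technical.

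FOS and JUN proteins pair through leucine zippers to form AP-1, a transcription factor that binds DNA at short symmetric sites. EGR and KLF proteins bind GC-rich DNA through zinc fingers. In cells with active RAS, signalling through the MAP kinases reaches ELK factors and SRF at the promoters of Fos and Egr1, and the kinases of the JNK group modify JUN. Most of these messenger RNAs are short-lived, and AU-rich stretches in the 3′ untranslated region (UTR) of Fos are a textbook example of a signal for rapid decay.

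Start regions of the promoters are shown for 4 members, the called genes Junb, Egr2 and Klf4 and, for contrast, Fos. Each runs from 250 bases before to 50 bases after the RefSeq start (GRCm38.p6), 5′ to 3′ on the gene's strand. Capitals mark matches to a CRE half-site (TGACG, either strand), an EGR site (GCGNGGGCG, either strand) or a TATA box (TATAAA, the gene's strand). The windows are chr12:85473640-85473939 (plus strand) for Fos, chr8:84978699-84978998 (minus) for Junb, chr10:67535249-67535548 (plus) for Egr2 and chr4:55532426-55532725 (minus) for Klf4.
Fos: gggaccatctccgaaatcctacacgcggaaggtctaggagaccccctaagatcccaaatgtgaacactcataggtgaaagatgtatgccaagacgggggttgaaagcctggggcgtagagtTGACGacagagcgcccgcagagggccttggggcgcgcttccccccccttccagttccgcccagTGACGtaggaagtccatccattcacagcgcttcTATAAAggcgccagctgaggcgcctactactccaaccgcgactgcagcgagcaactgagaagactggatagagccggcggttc
Junb: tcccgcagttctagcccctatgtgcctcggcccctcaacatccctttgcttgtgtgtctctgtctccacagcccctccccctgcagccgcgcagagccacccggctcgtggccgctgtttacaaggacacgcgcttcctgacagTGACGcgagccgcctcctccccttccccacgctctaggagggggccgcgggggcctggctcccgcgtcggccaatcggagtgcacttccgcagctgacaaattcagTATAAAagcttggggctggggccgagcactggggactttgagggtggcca
Egr2: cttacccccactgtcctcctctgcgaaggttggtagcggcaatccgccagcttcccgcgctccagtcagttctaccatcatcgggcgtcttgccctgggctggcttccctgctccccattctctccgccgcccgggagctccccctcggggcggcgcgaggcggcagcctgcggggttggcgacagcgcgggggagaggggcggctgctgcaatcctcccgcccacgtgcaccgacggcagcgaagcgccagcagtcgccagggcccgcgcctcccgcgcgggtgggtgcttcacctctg
Klf4: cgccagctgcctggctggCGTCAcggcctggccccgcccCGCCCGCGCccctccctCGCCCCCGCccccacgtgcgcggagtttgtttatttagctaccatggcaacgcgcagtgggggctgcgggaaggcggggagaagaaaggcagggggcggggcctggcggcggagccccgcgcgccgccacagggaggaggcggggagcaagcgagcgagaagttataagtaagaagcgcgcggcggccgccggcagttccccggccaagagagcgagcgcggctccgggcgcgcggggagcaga

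RefSeq windows matched 8 of the 10 members, all but Egr1 and Ier2. The Fos window held TGACG at 66 and 129 bases before the start and a TATA box at 33 bases before it. The Klf4 window held EGR sites at 194 and 211 bases before the start, and Fosb and Klf2 held 1 each. An EGR site was thus found in 3 of 8 members, against 5.56% of 32817 RefSeq promoter windows of the same length. CRE half-sites were found in 5 of 8 members and 20.8% of all windows, and GC boxes (GGGCGG, either strand, part of which can lie inside an EGR site) in 6 of 8 and 35.6%. The 8-base AP-1 form TGANNTCA, which includes the full CRE, was found in Jun and Jund and in 14.1% of all windows. In Jun it lay 45 bases before the start and again just after it. The RefSeq start of Jund lies 1210 bases from the GENCODE start, and that of Junb 30 bases from it. The full CRE (TGACGTCA), the 7-base AP-1 site (TGANTCA), the CArG box of SRF, the IRF element and the GAS of STAT factors (TTCNNNGAA) matched none of the 8 windows, against 1.79%, 7.81%, 1.63%, 3.43% and 8.29% of all windows. These matches describe letters only. Bases further upstream than the windows reach were not searched, and Egr1 had no window. Whether Fos has a CArG box beyond its window, or Egr1 has one at all, was therefore not tested.

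The libraries held 21814969 to 26292686 counts. Levels are CPM, counts scaled to a common library size with composition factors. Aspscr1, which checks the overexpression, had 392 and 380.0 CPM in UBXN9 1 and 2, against 92.1 and 115 CPM in control 1 and 2. That is 3.72-fold (log2 fold change 1.90, SE 0.18, edgeR adjusted p = 0.00144). The RNA polymerase III transcript Rn7sk, which has no poly-A tail, had 5.48 and 26.4 CPM in the UBXN9 libraries and 1.68 and 2.31 CPM in the controls, and ribosomal RNA from CT010467.1 took 0.509% and 0.820% of counts against 0.211% and 0.341%. The part of these shifts in the results below was not tested. Hepatocyte markers were close to absent, with 0.499 to 1.43 CPM summed over 7 genes in any library and Alb, Cyp3a11 and Tat at 0. The biliary and progenitor markers summed to 2940 and 3201 CPM in the UBXN9 libraries and 2659 and 2383 CPM in the controls, most of it from Spp1, with Prom1 at 0 and 1 of the 7 genes called lower. Of markers of other cells, 6 lymphoid genes summed to at most 0.149 CPM, with Cd3e and Nkg7 at 0. None of the myeloid, endothelial or stellate and fibroblast markers was at 0 in every library. The 6 myeloid genes summed to 12.3 and 9.99 CPM in the UBXN9 libraries against 6.68 and 6.81 CPM in the controls, with 1 called higher, and the 7 endothelial genes to 7.82 and 7.65 against 5.38 and 5.08 CPM. The 7 stellate and fibroblast genes summed to 594 and 710 CPM in the UBXN9 libraries against 525 and 474 CPM in the controls, with 2 called higher. Their part in the results was not tested. In bulk RNA, a change in the share of cells and a change in RNA per cell cannot be told apart.

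Setting UBXN9-overexpressing against control cells shows which immediate early factors differ when UBXN9 is raised. Egr1, Egr2, Klf4 and Junb rose, by 2.62-fold, 2.27-fold, 2.12-fold and 1.83-fold, and no member fell past the threshold. That is 4 of 10 members higher, where 5.06% of the 13230 genes tested were called higher, 2.38% lower and 7.44% in either direction (edgeR quasi-likelihood test, adjusted p under 0.05 over all genes). Without control 2 a single member, Egr1, was called. Fos was not called under any setting. At an unadjusted p under 0.05 a single member, Fosb, was lower, and neither DESeq2 nor limma-voom called a member lower. Libraries of the groups did not overlap in 7 members that were higher (25.0% of all genes tested) and in 1 that was lower (25.6%). The median log2 fold change was 0.57 over the 10 members and -0.0056 over all genes tested. The members were chosen with earlier results of these data known, so neither this median nor the share called is a test of the set. With 2 libraries a group, 0.333 is the smallest two-sided p that exact permutation can reach, so the calls rest on the spread shared across genes.

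**Figure D1:**
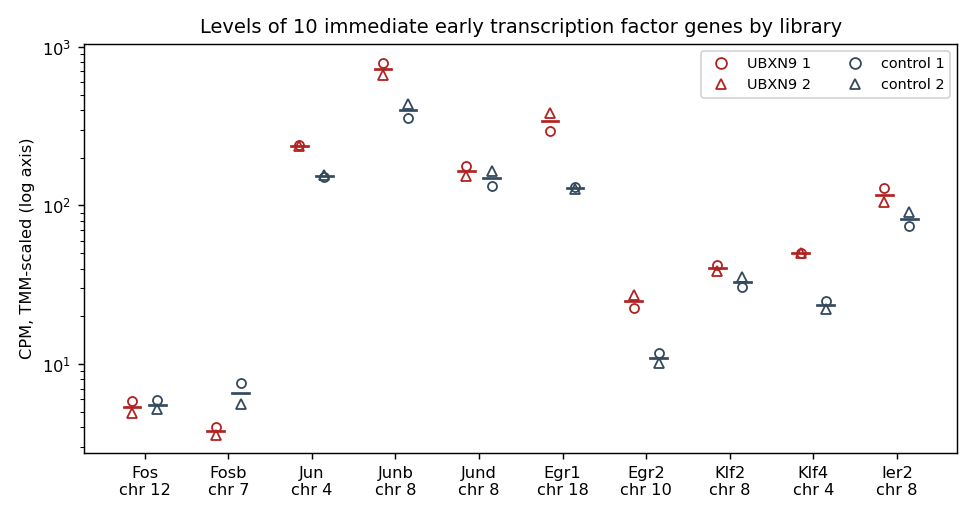
Level of each member (CPM on a log axis) in every library, UBXN9-overexpressing in red and control in dark blue, circles for library 1, triangles for library 2 and lines for group means. Egr1, Egr2, Klf4, Jun and Junb sit higher in both UBXN9 libraries than in both controls, while Fos and Jund overlap between the groups.

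Egr1 encodes a zinc finger factor that growth factors induce within minutes, and it is the member with the largest change. It had 294 and 382 CPM in UBXN9 1 and 2, against 130.5 and 128 CPM in control 1 and 2. Both UBXN9 libraries lay above both controls, and they also differed more from each other than the controls did. Its log2 fold change was 1.39 (SE 0.18, 95% interval 0.95 to 1.83, edgeR adjusted p = 0.00597). Egr1 (ENSMUSG00000038418, chromosome 18, 34859823 to 34864984, GRCm38) was called under all 14 alternative settings, with log2 fold changes from 1.19 to 1.57 and adjusted p values from 1.07e-12 to 0.0234.

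Egr2, a relative of Egr1 known for its part in nerve myelination and in T cell tolerance, was far less abundant per length of exon. Its counts were 454 and 724 in the UBXN9 libraries and 308 and 225 in the controls, which corresponds to 22.6 and 27.3 CPM against 11.8 and 10.2 CPM. The groups did not overlap. Egr2 (ENSMUSG00000037868, chromosome 10, 67535475 to 67542188) had a log2 fold change of 1.18 (SE 0.21, 95% interval 0.69 to 1.68, edgeR adjusted p = 0.0184). The adjusted p was 0.163 without control 2 and 0.0612 with library totals as the scaling, within a range of 3.2e-07 to 0.163 over the alternatives. Egr3 and Egr4 complete the family and were named after their values were seen. Egr3 had 15.6 and 19.2 CPM in the UBXN9 libraries against 29.9 and 24.95 CPM in the controls, the opposite order to Egr1 and Egr2, and did not pass (log2 fold change -0.66, SE 0.20, edgeR adjusted p = 0.116). Egr4 had a level of 0 in every library. Per kilobase of exon, Egr1 made up 86.6% and 87.3% of the summed EGR level in the UBXN9 libraries and 74.0% and 76.7% in the controls.

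Klf4, a zinc finger factor best known from epithelial differentiation and from reprogramming to pluripotency, had the tightest values of the called members. It stood at 50.12 and 50.03 CPM in the UBXN9 libraries against 24.8 and 22.3 CPM in the controls. Its log2 fold change was 1.09 (SE 0.16, 95% interval 0.70 to 1.48, edgeR adjusted p = 0.0102). Klf4 (ENSMUSG00000003032) lies on chromosome 4 at 55527143 to 55532466. Its call was lost without control 2 (log2 fold change 1.01, adjusted p = 0.12), where the alternatives ran from 1.19e-06 to 0.12. Klf2, which in endothelium answers to blood flow, had 42.0 and 38.3 CPM in the UBXN9 libraries and 30.7 and 35.3 CPM in the controls. These ranges did not overlap but lay close together, and the log2 fold change of 0.28 (SE 0.17, 95% interval -0.12 to 0.69) did not pass (edgeR adjusted p = 0.406). Klf2 (ENSMUSG00000055148) lies on chromosome 8 at 72319033 to 72321656.

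Junb was the most abundant member, and its protein can oppose JUN at some promoters. It had 795 and 661 CPM in the UBXN9 libraries against 356 and 439 CPM in the controls. The groups did not overlap, although the libraries within each group lay far apart. The log2 fold change was 0.87 (SE 0.20, 95% interval 0.41 to 1.34), and the call was close to the threshold (edgeR adjusted p = 0.0448). The adjusted p was 0.435 without control 1, 0.144 without control 2, 0.0514 with upper-quartile factors and 0.135 with scaling within each chromosome, in a range of 2.16e-05 to 0.435 over the alternatives. Junb (ENSMUSG00000052837, chromosome 8, 84974484 to 84978718) overlaps Prdx2 on the other strand by 173 exonic bases, but its main transcript shares none of them.

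Jun encodes the founding JUN protein and lies just on the other side of the threshold. It had 240 and 236 CPM in the UBXN9 libraries against 151 and 156 CPM in the controls, with the libraries of each group close together. The log2 fold change was 0.63 (SE 0.15, 95% interval 0.28 to 0.99, edgeR adjusted p = 0.0504). With the replicate block the edgeR adjusted p was 0.247. Jun passed when either UBXN9 library was left out (log2 fold change 0.63 without UBXN9 1 and 0.64 without UBXN9 2). It did not pass when either control was left out (0.6 without control 1 and 0.66 without control 2). It passed under 6 of 14 alternatives, DESeq2 (adjusted p = 0.00699) and the stricter filter of 5 CPM in 2 libraries (adjusted p = 0.0443) among them, and the alternatives ran from 0.000619 to 0.524. Jun (ENSMUSG00000052684, chromosome 4, 95049034 to 95052222) shares 232 bases with the antisense gene Junos, whose counts were 236 and 378 in the UBXN9 libraries against 151 and 141 in the controls. Junos passed with a log2 fold change of 1.10 (edgeR adjusted p = 0.0384), though not without control 1 (0.246) or control 2 (0.204) or with library totals (0.0805) or scaling within each chromosome (0.0965). With no strand handling stated, reads in the shared stretch cannot be told apart, and Junos counts were small beside the 4819 and 6271 counts of Jun in the UBXN9 libraries and 3946 and 3448 in the controls.

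Jund, the JUN gene that is usually expressed steadily and is the least inducible, had overlapping groups. It stood at 178 and 154 CPM in the UBXN9 libraries and 133 and 164 CPM in the controls. Its log2 fold change of 0.16 (SE 0.18, 95% interval -0.26 to 0.58) did not pass (edgeR adjusted p = 0.684). Jund (ENSMUSG00000071076, chromosome 8, 70698949 to 70700616) shares 877 bases with the antisense gene Gm11175, which had at most 98 counts in any library. Ier2, a short gene for a nuclear regulator, had 129 and 105 CPM in the UBXN9 libraries against 74.4 and 90.3 CPM in the controls. The groups did not overlap, but the log2 fold change of 0.51 (SE 0.18, 95% interval 0.07 to 0.94) did not pass (edgeR adjusted p = 0.165), except without UBXN9 2 (0.00367) and under a crossed pairing added after seeing the data (0.0047). Ier2 (ENSMUSG00000053560) lies on chromosome 8 at 84661331 to 84662852.

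Fos, the classical partner of JUN and the standard marker of acute stimulation, was low in all libraries. Its counts were 118 and 130 in the UBXN9 libraries and 155 and 114 in the controls, or 5.87 and 4.90 CPM against 5.91 and 5.17 CPM. The groups overlapped, with a log2 fold change of -0.04 (SE 0.26, edgeR adjusted p = 0.957). Its 95% interval of -0.66 to 0.57 leaves room for a change of up to 1.49-fold upward, so at this depth equal levels are not shown. Fos (ENSMUSG00000021250) lies on chromosome 12 at 85473890 to 85477273. Fosb, whose protein has a stable short form known from brain, is the 1 member with both UBXN9 libraries below both controls. It had 81 and 95 counts in the UBXN9 libraries and 198 and 124 in the controls, or 4.03 and 3.58 CPM against 7.56 and 5.63 CPM. The log2 fold change was -0.79 (SE 0.28, 95% interval -1.46 to -0.13, edgeR adjusted p = 0.156). Fosb (ENSMUSG00000003545, chromosome 7, 19302696 to 19310051) passed under 2 of 14 alternatives, 1 of them without UBXN9 1 (adjusted p = 0.0357), and its log2 fold change ran from -0.99 to -0.57 over them.

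Chromosomes 4 and 8, where 6 of the 10 members lie, stood higher as a whole in UBXN9-overexpressing cells. The median log2 fold change was 0.269 over the 806 genes tested on chromosome 4 and 0.309 over the 732 on chromosome 8, while it lay between -0.12 and 0.109 on the other 18 chromosomes. On these chromosomes 77.7% and 80.2% of genes had a positive value, and 8.26% of their 1538 genes were called higher, against 4.64% of the 11692 other genes. Set against that background, 2 of the 6 members there (Klf4 and Junb) and 2 of the 4 members elsewhere (Egr1 and Egr2) were called higher. Jund and Klf2, with 0.16 and 0.28, lay below the median of chromosome 8, and Ier2 lay 0.20 above it. Junb lay 0.56 above that median, while Jun and Klf4 lay 0.36 and 0.82 above the median of chromosome 4.

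**Figure D2:**
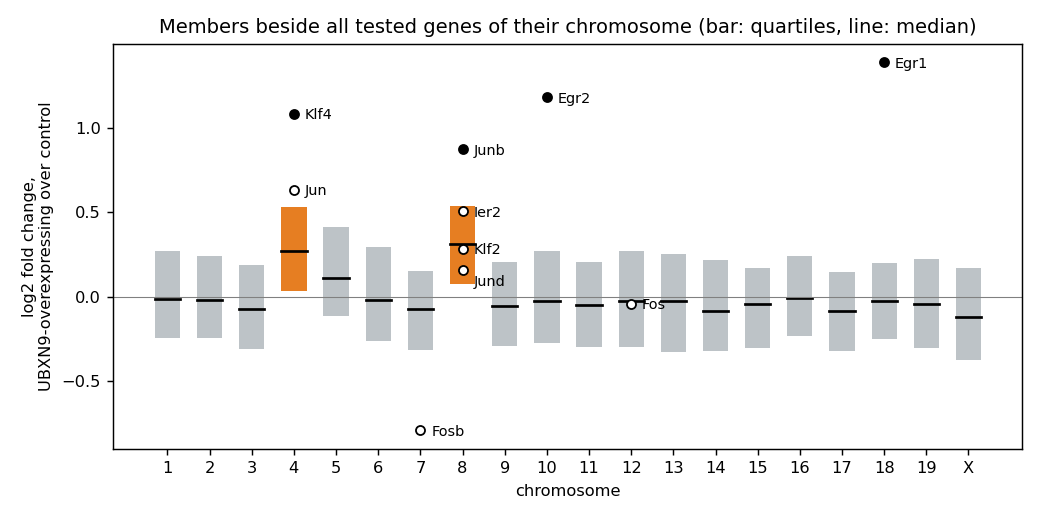
Log2 fold change (UBXN9-overexpressing over control) of the tested genes of each chromosome, with bars for the quartiles, black lines for medians and circles for members, filled where adjusted p was under 0.05. Chromosomes 4 and 8 (orange) have medians of 0.269 and 0.309, and Jund, Klf2 and Ier2 lie within the middle range of chromosome 8.

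The same fit with composition factors estimated separately on each chromosome compares a gene with its own chromosome. Then 3 of 10 members were called higher, Egr1, Egr2 and Klf4, where 4.5% of all genes were called higher and 2.13% lower. The median log2 fold change over the 10 members was 0.28 in this fit, against 0.57 with all genes scaled together. In this fit 6 members had a positive value, against 8 with all genes scaled together. Klf4 had a log2 fold change of 0.80 (SE 0.16, edgeR adjusted p = 0.0349), against 1.09 with all genes scaled together. Junb had 0.57 (SE 0.18) and Jun 0.35 (SE 0.14), and neither passed (edgeR adjusted p = 0.135 and 0.226). Jund and Klf2 changed sign to -0.14 and -0.016, and Ier2 had 0.20. Genes elsewhere moved little, with 1.46 for Egr1 and 1.22 for Egr2. Why these chromosomes differ was not tested.

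**Figure D3:**
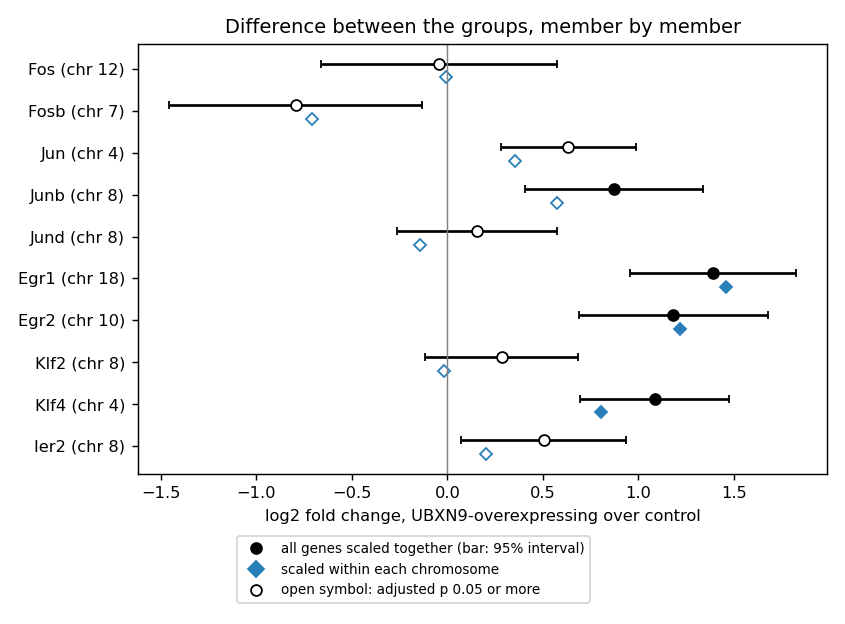
Log2 fold change of each member (UBXN9-overexpressing over control) with all genes scaled together (black circles, bars for 95% intervals) and with scaling within each chromosome (blue diamonds), filled where adjusted p was under 0.05. The diamonds of members on chromosomes 4 and 8 sit to the left of their circles, and Klf4, Egr1 and Egr2 are filled in both.

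The tested neighbours within 500 kb on either side were set beside each member. Around Junb, Jund, Klf2 and Ier2 they had median log2 fold changes of 0.33 (31 genes), 0.33 (36 genes), 0.22 (19 genes) and 0.30 (34 genes). Ier2 and Junb lie near each other, so their windows share genes. Jun had 4 tested neighbours with a median of 1.00, among them the antisense gene Junos that overlaps it, and Klf4 had 1 with 0.34. Away from these chromosomes the medians were -0.075 around Fos (16 genes), -0.11 around Fosb (35 genes), -0.20 around Egr1 (10 genes) and 0.046 around Egr2 (6 genes).

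The 4 members on chromosome 8 also moved together between libraries of the same group. UBXN9 2 differed from UBXN9 1 by -0.27 for Junb, -0.21 for Jund, -0.30 for Ier2 and -0.13 for Klf2 on the log2 scale. Control 2 differed from control 1 by 0.30, 0.30, 0.28 and 0.20 for the same genes. Egr1 and Egr2 went the other way in both groups, with 0.38 and 0.27 between the UBXN9 libraries and -0.032 and -0.20 between the controls. Across all genes tested, which are no replicates of each other, the UBXN9 libraries' difference had a Spearman correlation of 0.423 with exon length, and that between the controls -0.325. The chromosome 8 members have 1522 to 2301 exonic bases, and Egr1 and Egr2 have 4484 and 3398, against a median of 4516 over 11924 protein-coding genes tested. Not every member followed these correlations. Fosb, the longest with 6243 bases, differed by -0.17 between the UBXN9 libraries and -0.43 between the controls. Fos, with 2352 bases, differed by -0.26 and -0.19. Jun (3189 bases) had -0.021 and 0.055, and Klf4 (3049 bases) had -0.0027 and -0.15. The part of length in the group difference was not tested.

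**Figure D4:**
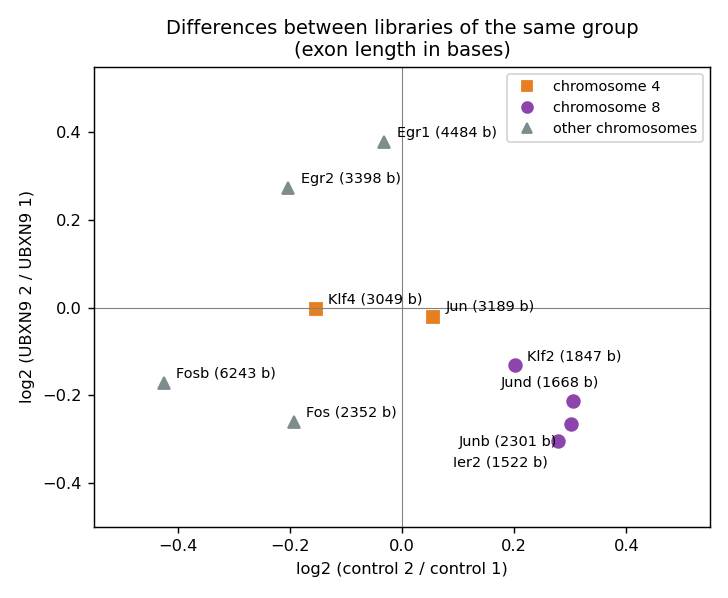
Log2 ratio of library 2 to library 1 among the controls (horizontal) and among the UBXN9 libraries (vertical) for each member, with its exon length in bases. Junb, Jund, Ier2 and Klf2 lie together at the lower right, and Egr1 and Egr2 at the upper left.

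Per kilobase of exon, levels can be compared between genes. In UBXN9-overexpressing cells Junb led with a mean of 316 CPM per kilobase, followed by Jund with 99.4, Ier2 with 76.8, Egr1 with 75.4 and Jun with 74.7. In control cells the means were 173 for Junb, 89.2 for Jund, 54.1 for Ier2, 48.1 for Jun and 28.8 for Egr1. The libraries of Ier2, Egr1 and Jun overlapped in the UBXN9 group, and those of Ier2 and Jun overlapped in the control group, so their order there is not settled. The lower places were the same in both groups, Klf2 (21.8 and 17.9 in UBXN9-overexpressing and control cells), Klf4 (16.4 and 7.73), Egr2 (7.34 and 3.23), Fos (2.29 and 2.36) and Fosb (0.610 and 1.06), with no overlap between neighbours.

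JUN transcripts far outweighed those of Fos and Fosb. The summed JUN level was 527 and 454 CPM per kilobase in the UBXN9 libraries against 282 and 338 in the controls. Junb made up 65.5% and 63.4% of it in the UBXN9 libraries against 54.9% and 56.4% in the controls. Jund made up 20.3% in both UBXN9 libraries against 28.3% and 29.1%. Jun, Junb and Jund all lie on chromosomes 4 and 8, which stood higher as a whole. None of them passed with scaling within each chromosome (edgeR adjusted p = 0.226, 0.135 and 0.72). In the FOS family most of the level came from Fosl1, which encodes FRA-1, a FOS relative common in RAS-driven cells, here named after its values were seen. The summed FOS level was 59.7 and 56.2 CPM per kilobase in the UBXN9 libraries against 44.0 and 46.6 in the controls. Fos made up at most 5.71% of it in any library. Fosl1 made up 88.2% and 84.8% in the UBXN9 libraries against 79.9% and 83.3% in the controls. It had 107 and 96.9 CPM in the UBXN9 libraries and 71.5 and 78.9 CPM in the controls, and its log2 fold change of 0.44 (SE 0.16) did not pass (edgeR adjusted p = 0.158). Among all 17 KLF genes, Klf4 made up 16.6% and 17.2% of the summed level in the UBXN9 libraries against 10.3% and 9.0% in the controls.

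**Figure D5:**
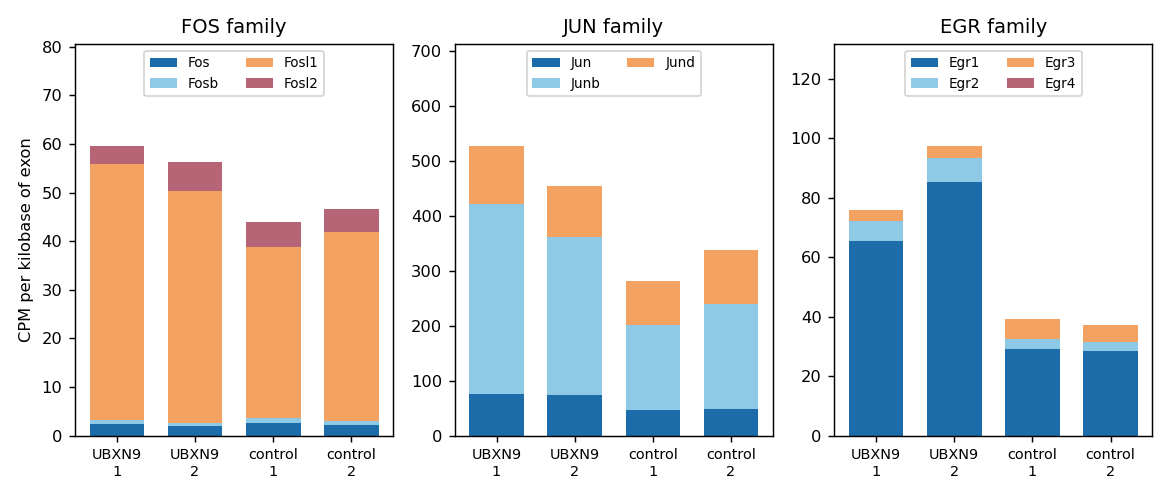
Summed level per kilobase of exon (CPM per kilobase) of the FOS, JUN and EGR families in each library, UBXN9-overexpressing left and control right, with 1 colour per gene. Fosl1, Junb and Egr1 are the largest parts of their families in all 4 libraries. The FOS, JUN and EGR totals are each higher in both UBXN9 libraries than in both controls.

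Features of the transcripts, which the choice by name did not use, varied among the members. The main transcripts of Jun, Junb, Jund and Ier2 have a single exon, 4 of 10 members against 2.56% of the 11924 protein-coding genes tested. Jun, Junb and Jund belong to the same family, so they are not separate observations of this trait. The pentamer ATTTA, the core of AU-rich decay elements, was found in the 3′ UTR of 9 members, all but Ier2, and of 66.3% of 11709 genes. Its density ran from 0 to 4.91 per kilobase (Fos), and 3 members (Fosb, Klf4 and Ier2) lay below the median of 1.22 over those genes. The longer core TATTTAT was found in 5 members (Fos, Fosb, Jun, Jund and Klf2) and in 28.2% of the genes. Genes with it had a median log2 fold change of 0.0046 and those without it -0.018. Of these 5 members none was called, though Jun lay just past the threshold (edgeR adjusted p = 0.0504). Over all genes tested 7.44% were called in either direction, a share too small for the lack of calls among 5 members to stand out. The called Egr1, Egr2, Klf4 and Junb have ATTTA without the longer core. Ier2 also lacks the longer core and was not called. A link between the core and the calls was not tested. The sites of Fos and Jun are shown from the GENCODE transcripts, with the core in capitals and 10 bases on either side, since Fos is the textbook case and Jun has the next highest density among the members that hold the core.
Fos, position 656 of its 3′ UTR: gttttcaattTATTTATtaagatggat
Fos, position 680: gattctcagaTATTTATatttttattt
Jun, position 1171: tgcttgtgcaTATTTATaatagcgttc

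Of 38 other immediate early genes, 34 were tested. In that list 2 rose and the others did not pass, and the median log2 fold change was 0.08. Over all genes tested, 5.06% were called higher and 2.38% lower. Mafk, a small MAF protein that pairs with other leucine zipper factors, rose 3.19-fold to 224 ± 27.9 CPM in UBXN9-overexpressing cells, against 70.2 ± 1.43 CPM in control cells (SD, n = 2; edgeR adjusted p = 0.00177). Zfp36, which encodes tristetraprolin, a protein that binds AU-rich elements and speeds decay, rose 1.75-fold to 61.4 ± 1.99 CPM, against 35.2 ± 0.922 CPM in control cells (edgeR adjusted p = 0.0258). It was the 1 of 10 AU-rich element binding proteins that passed, and their median was 0.10, or -0.031 without chromosomes 4 and 8. Among 18 tested AP-1 dimer partners, 3 rose and the others did not pass, with a median of 0.43. Batf2, a zipper protein induced by interferon, had 634 and 629 counts in the UBXN9 libraries against 13 and 2 in the controls (log2 fold change 6.47, SE 0.51, edgeR adjusted p = 0.000718). Its 88.6-fold difference was 286-fold without control 1 and 55.1-fold without control 2. Ddit3, the stress factor CHOP, rose 1.97-fold (edgeR adjusted p = 0.0212), and Mafk is also on this list. Of 15 tested KLF and EGR relatives and corepressors, whose median was 0.13, 1 rose, Klf15, a metabolic regulator in liver and muscle, by 2.78-fold to 10.2 ± 0.194 CPM in UBXN9-overexpressing cells, against 3.66 ± 0.169 CPM in control cells (edgeR adjusted p = 0.0134).

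Of 35 tested genes upstream, in the RAS, MAPK and serum response route, 2 rose and 1 fell, and the median log2 fold change was -0.007. Among all genes tested, 5.06% rose and 2.38% fell past the threshold. All 3 genes called in this list are receptors of growth factors. Egfr, the receptor of epidermal growth factor, rose 2.25-fold to 83.8 ± 11.7 CPM in UBXN9-overexpressing cells, against 37.2 ± 4.95 CPM in control cells (edgeR adjusted p = 0.0122), and Fgfr2 rose 2.30-fold (adjusted p = 0.0317). Erbb3, a partner of EGFR, fell to 1.11 ± 0.512 CPM, against 7.06 ± 0.599 CPM in control cells (edgeR adjusted p = 0.008). On the log2 scale it fell by 2.64, and by 3.23 when UBXN9 2 was left out. Hras, the gene behind the name of the line, had 80.0 and 54.5 CPM in the UBXN9 libraries and 59.2 and 77.1 CPM in the controls and did not pass (edgeR adjusted p = 0.98). Of 10 tested ligands of EGFR and gp130, with a median of 0.24, 1 rose and 1 fell. Lif, a cytokine acting through gp130, rose 1.80-fold and Areg, a ligand of EGFR, fell by 1.13 on the log2 scale (edgeR adjusted p = 0.023 and 0.0357). Of 19 feedback inhibitors, with a median of 0.046, 1 fell, the phosphatase gene Dusp14, by 1.13 on the log2 scale (edgeR adjusted p = 0.0455), and the others did not pass.

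Listed targets of the factors moved in both directions. Of 22 tested AP-1 targets, 4 rose and 1 fell. Their median log2 fold change was 0.27, and 0.14 without chromosomes 4 and 8. Mmp3, a matrix protease, rose 3.65-fold (edgeR adjusted p = 0.00544), Hmox1, the heme-degrading enzyme on chromosome 8, rose 2.33-fold (adjusted p = 0.0122), and Plau, the protease urokinase, fell by 1.58 on the log2 scale (adjusted p = 0.0135). Of 14 tested EGR1 targets, 2 rose and 1 fell, with a median of 0.10. The adhesion gene Icam1 rose 5.34-fold, and Pdgfb, a platelet-derived growth factor chain, fell to 0.913 ± 0.0948 CPM in UBXN9-overexpressing cells, against 6.74 ± 0.291 CPM in control cells (edgeR adjusted p = 0.0184 and 0.00251). Of 11 tested KLF2 and KLF4 targets, 1 rose and 1 fell, with a median of 0.024 that was -0.016 without chromosomes 4 and 8. Sod3, an extracellular superoxide dismutase, rose 17.8-fold, and the keratin gene Krt19 fell by 1.69 on the log2 scale (edgeR adjusted p = 0.000448 and 0.0294). Beside these counts, 5.06% of all genes were called higher and 2.38% lower, and no list was tested as a whole. Aspscr1, Batf2, Mafk, Mmp3, Hmox1, Pdgfb, Sod3 and Erbb3 were called under all 14 alternatives. Without control 2 the adjusted p rose past the threshold for Zfp36 (0.314), Lif (0.144), Dusp14 (0.272), Areg (0.224), Fgfr2 (0.201), Krt19 (0.143), Icam1 (0.117), Klf15 (0.105), Ddit3 (0.103), Egfr (0.0961) and Plau (0.0646). Without control 1 it did so for Zfp36 (0.213), Lif (0.297), Dusp14 (0.245) and Ddit3 (0.121). With library totals as the scaling, Zfp36 (0.0633), Fgfr2 (0.0921) and Dusp14 (0.0598) did not pass. Dusp14 also missed the threshold under DESeq2 (0.0614) and with scaling within each chromosome (0.0562).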

How the data were processed

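RNA of 2 UBXN9-overexpressing and 2 control samples of LPC-HRas cells was sequenced on an Illumina HiSeq instrument after library preparation with the TruSeq RNA kit, per the labels' protocols. The deposited values are estimated counts per gene, some of them fractions and not scaled to a common total. Named in the submitters' processing notes are the aligner HISAT2 2.1.0, the counter HTSeq and, as build, GRCm38.p6; settings, annotation and strand handling are not given in the sources used here. Totals of 21814969 to 26292686 counts per library set the depth, and Fos and Fosb, with 81 to 198 counts per library, have the widest intervals of the members.

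Values were rounded to whole counts. Of 55728 entries 241 loci outside the annotation, with 0.302% to 0.535% of counts, were left out, and 55227 of 55487 Ensembl identifiers matched GENCODE release M21 (GRCm38), which gave symbols, positions and exon lengths. The test was edgeR 4.0.16 under R 4.3.3 (TMM factors, filterByExpr, quasi-likelihood F test, two-sided) over 13230 genes, adjusted by Benjamini-Hochberg. The SE is the absolute log2 fold change divided by the square root of F. Intervals use the total degrees of freedom of the test, residual and prior together, the prior part coming from the spread shared across genes. Alternatives used RLE, upper-quartile, no composition or per-chromosome TMM factors, a filter of 5 CPM in 2 libraries or none, limma-voom (limma 3.58.1), DESeq2 1.42.0, a replicate block, and each library left out, which assumes that the lone library varies like the other group. A crossed block was added after seeing the data. The procedure was first tested on simulated data.

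The members, the gene lists and the naming rule were chosen with earlier results of these data known. Named were Aspscr1, Hras, all members and, of each list, up to 3 called genes with the smallest p; 1 gene that this rule names is not reported here. Genes named as chosen after seeing values, the overlapping genes and the RNAs without a poly-A tail fall outside the rule. Promoter windows came from RefSeq (GRCm38.p6), and 3′ UTRs from the GENCODE transcript with the longest coding part. Figures were drawn with matplotlib 3.10.9.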

Additional observations from a re-analysis of the deposited data

How the results depend on the processing

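Over the 14 alternatives the count of called members ran from 1 to 7, against 4. It was 1 without control 2, where Egr1 remained, and 7 with a crossed replicate block, a pairing added after seeing the data that also gave 3137 called genes. Leaving out a library gave 1 to 6 called members and 508 to 2782 called genes, against 984, with the fewest without control 2 (508 genes) and more without UBXN9 1 (2561) or UBXN9 2 (2782). Without a filter 1827 of 22729 genes tested were called, against 984 of 13230. The sign of the log2 fold change turned in 4 cases, none of them called: Fos had 0.051 without control 1 and 0.082 without UBXN9 2, and Jund had -0.14 and Klf2 -0.016 with scaling within each chromosome. Leaving out a library moved Fos between -0.18 and 0.082. Hras, not called, turned to 0.066 with scaling within each chromosome, 0.18 without control 2 and 0.23 without UBXN9 2, and had -0.32 without UBXN9 1 and -0.20 without control 1. In 118 of 140 cases a member kept its direction and its side of the threshold, in 8 a call was lost and in 10 one was gained. The same held for 298 of 335 cases of the other named genes. The labels give same-numbered libraries no link beyond the number. Their deviations correlated at -0.373, which does not settle whether they were paired. Under the replicate block 3 members and 932 genes were called, and the calls were lost for Junb (0.112), Dusp14 (0.110), Zfp36 (0.0802), Junos (0.0658) and Lif (0.0579), with adjusted p in parentheses. With 81 to 198 counts for Fos and Fosb per library, small changes in these genes were not detectable at this depth.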
